A study of Mus musculus with 3530 samples.

Results

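The upper-layer excitatory neurons of the mouse medial prefrontal cortex (mPFC) described here are the cells whose transcripts point most strongly to Wfs1, Calb1 and Cux2. Of 3530 single cells, 2327 were excitatory neurons, with more reads of Slc17a7, Neurod2 and Neurod6, which mark glutamatergic neurons, than of Gad1 and Gad2, which make the inhibitory transmitter GABA. Each excitatory neuron was given to 1 of 6 types, the one whose 3 marker genes had the highest mean z score of log2(CPM + 1), where CPM is the read count of a gene scaled to the total of the cell. The type with Wfs1, Calb1 and Cux2 on top holds 247 cells, 7.0% of all cells and 10.6% of the excitatory neurons. The other types are called here by their first marker: Rorb (579 cells), Rprm (585), Oprk1 (310), Tshz2 (346) and Pou3f1 (212). A further 48 excitatory neurons had no marker set above the mean.

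The cells came from TRAP2;Ai14 mice used for contextual fear conditioning, and all 4 conditions carry both alleles. TRAP2 places a drug-dependent Cre recombinase under the activity-regulated Fos gene, and Ai14 makes a red fluorescent reporter once Cre has acted, so that cells active in a chosen time window stay labelled. The labels name the conditions as Fear-Recall, Fear-Only, Context-Only and Homecage, with 5 animals each. Cells were dissociated from mPFC with a papain kit and read by the Smart-seq2 method, which covers whole transcripts without molecular identifiers. A sorting gate, written pos or neg, is part of many cell titles. Labels do not spell out what the gate sorted on, nor the animals' age or sex, and Homecage animals carry the same alleles as the rest. The replicate is the animal, since cells of 1 animal share their source. The members come from 18 of the 20 animals, with at most 52 from one.

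Upper-layer excitatory neurons of the neocortex lie near the pial surface and send their axons mainly to other cortical areas, including the opposite hemisphere. Many deep-layer neurons, though not all, send axons out of the cortex to the thalamus, brainstem or spinal cord. Fezf2, Bcl11b and Tle4 are transcriptional regulators used as deep-layer markers. Wfs1 encodes wolframin of the endoplasmic reticulum, Calb1 encodes the calcium-binding protein calbindin, and Cux2 is a homeobox factor of upper-layer neurons. In prefrontal cortex, upper layers take part in exchange between cortical areas and with the amygdala, which is why they are of interest in studies of remote fear memory.

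The marker genes of the rule describe the members and test nothing. Summed over the cells of each animal, for the 9 animals with at least 10 members, Wfs1 was at 88.9 ± 29.4 CPM (SD, n = 9) in the members and 17.3 ± 12.1 in the other types. Calb1 stood at 477 ± 118.6 against 47.6 ± 19.1 CPM. For Cux2 the values were 192 ± 98.99 and 44.97 ± 19.4 CPM. All 3 genes had at least 1 read in 132 of the 247 cells (53.4%), Calb1 and Cux2 without Wfs1 in 61 (24.7%), Wfs1 and Cux2 without Calb1 in 24 (9.72%) and Wfs1 and Calb1 without Cux2 in 13 (5.26%). The remaining members had reads of a single marker: 8 cells of Calb1, 6 of Cux2 and 3 of Wfs1. The label therefore rests on all 3 genes in about every second cell, and on a pair in most of the others.

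The type has a soft edge. The mean z of the upper-layer genes had a median of 1.23 over members, and the lead over the next type had a median of 0.45, from 0.0018 to 2.13. Of the members, 118 led by 0.5 or more. The 19 members with a lead under 0.05 had a median upper-layer z of 0.787, and the 15 cells of other types that missed by less than 0.05 had 0.749. The next best type was Rorb for 86 members, Pou3f1 for 81, Oprk1 for 49, Tshz2 for 26 and Rprm for 5. When every cell was thinned to 100000 reads before typing, 234 of the 247 members kept their type, and 33 other cells joined it. Members and other types were read to similar depth, with medians of 815557 and 831748 reads and of 7148 and 7289 genes. Members ranged from 100002 to 3554923 reads, and 39 of them had fewer than 5000 genes. No cells had identical counts.

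Genes outside the rule gave the type an upper-layer look. Lists of 18 upper-layer and 18 deep-layer genes, chosen with earlier results of these data known, were compared between members and the other 5 types within each of the 9 animals. The members' sums held 11 to 52 cells and those of the other types 74 to 301. Because the types were made from these cells, the comparison is a description with no test. Among 8824 genes at 10 CPM or more in either kind of sum, 262 (2.97%) were higher in members in every one of the 9 animals and 371 (4.20%) were lower in every one. Of the 16 upper-layer genes that could be measured, 7 were higher in all 9 animals and none was lower in all, and their median difference in log2(CPM + 1) was 0.90. For the 13 measured deep-layer genes, none was higher in all 9 animals, 10 were lower in all, and the median was -2.81. Over all 8824 genes the median was -0.07. Since marker genes of the rule and other genes of a cell vary together, these counts show what the cells look like and are no independent evidence of a layer.

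**Figure D1:**
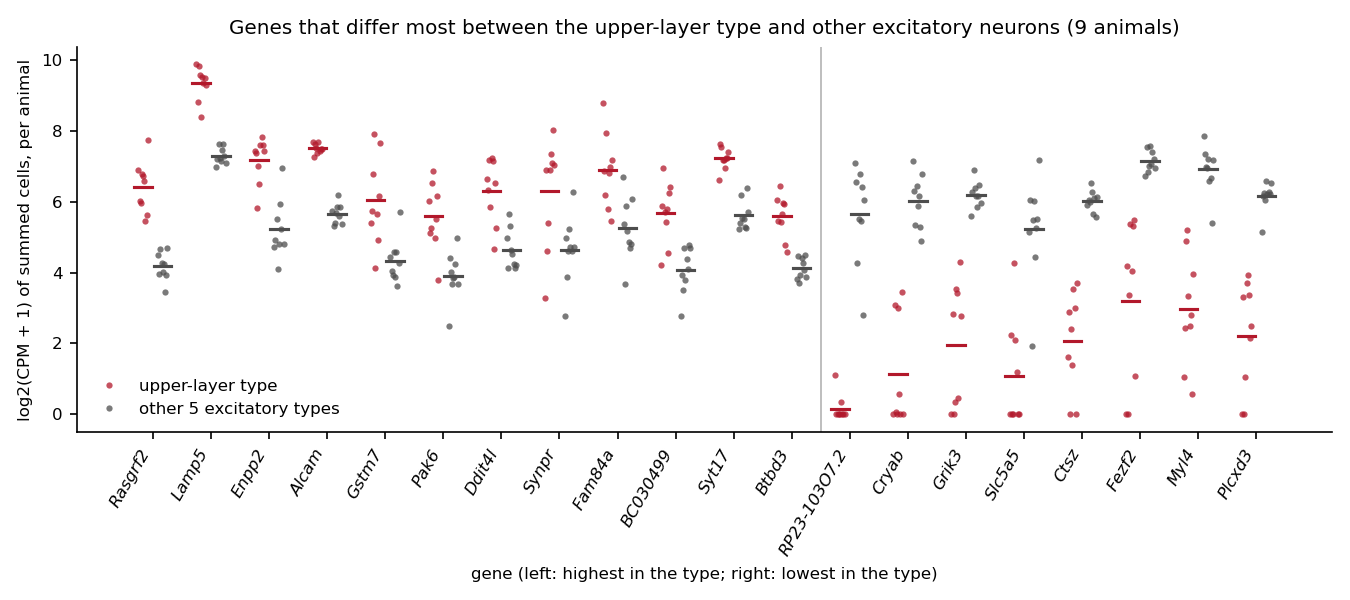
Level of the 12 genes highest and the 8 genes lowest in the upper-layer type relative to the other 5 excitatory types, as log2(CPM + 1) of summed cells (y axis); each point is 1 of 9 animals and each bar the mean over animals, red for the type and grey for the others. Alcam and Lamp5 lie above the other types in all 9 animals, and Cryab, Grik3 and Fezf2 below.

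Among the genes that stood highest in the members, Rasgrf2 and Lamp5 lead. Rasgrf2, which encodes a calcium-responsive exchange factor for Ras and lies on chromosome 13 (GRCm38, 91880400 to 92131656), was at 116.6, 63.8 and 61.2 CPM in Context-Only mice 2, 3 and 5b, 109 and 103.9 in Fear-Only 2 and 3, 94.8, 43.1 and 48.7 in Fear-Recall 2, 3 and 4, and 213.6 in Homecage 2. The other types were at 9.89 to 24.8 CPM in the same animals, so the ranges did not overlap, and the mean difference was 2.23 ± 0.53 on the log2 scale (SD, n = 9). The Homecage animal is high among the 9. Lamp5, a lysosome-associated membrane protein of neurons on chromosome 2 (136052239 to 136069917), was at 933, 451 and 909 CPM in Context-Only, 754 and 331 in Fear-Only, 734, 647 and 716 in Fear-Recall and 630 in Homecage, in the same order of mice. In the other types Lamp5 was at 126 to 197 CPM, again without overlap, a difference of 2.05 ± 0.47. Single cells varied widely: the quartiles of Lamp5 over members were 204.2 and 1076 CPM, and 93.1% of members had a read against 48.4% of the other types.

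Several adhesion, membrane and secreted proteins were among the 20 highest. Alcam, a cell adhesion molecule of the immunoglobulin family on chromosome 16 (52248996 to 52454074), was at 206.1, 151.97 and 195.8 CPM in Context-Only, 182.3 and 163.5 in Fear-Only, 205.03, 170 and 177 in Fear-Recall and 179.01 in Homecage. The other types were at 38.5 to 71.5 CPM, and the difference of 1.84 ± 0.26 had the smallest spread among the 20 highest genes. A read of Alcam was found in 96.0% of members and 61.1% of other types. Syt17, a synaptotagmin-like membrane protein, was at 151 ± 30.4 against 49.7 ± 16.1 CPM, and Rtn4rl1, a receptor of the Nogo family that limits axon growth, at 53.6 ± 14.6 against 19.5 ± 6.18. Enpp2, the secreted enzyme autotaxin that makes lysophosphatidic acid, was at 154.2 ± 54.3 against 43.2 ± 32.5 CPM. Fstl4, a follistatin-like protein, stood at 97.3 ± 44.3 against 35.7 ± 14.3. All 5 genes were higher in members in 9 of 9 animals.

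Some other high genes varied more between animals than Alcam. Synpr, a synaptic vesicle protein, ranged from 8.81 CPM in Context-Only 2 to 260 CPM in Fear-Recall 4, and Gstm7, a glutathione transferase, from 16.6 in Fear-Only 3 to 240 in Fear-Only 2. Fam84a was at 443 CPM in Context-Only 2 and at 42.5 to 246 in the other 8 animals. Pak6, a p21-activated kinase, was at 12.8 to 116 CPM, and Ddit4l, an inhibitor of mTOR signalling, at 24.4 to 148. Each of these genes was nevertheless higher in members than in other types of the same animal in 9 of 9 animals, as were BC030499, Btbd3, S100a6, Car4, Neurod1, Bhlhe40 and Dusp18. Bhlhe40, a transcription repressor, was at 150 ± 64 against 63.9 ± 40.4 CPM, and Neurod1, a neuronal helix-loop-helix factor, at 52.6 ± 31.6 against 18.03 ± 6.41. Gsg1l, an auxiliary subunit of AMPA receptors, was higher in 8 of 9.

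The transcription factors and adhesion genes of the upper-layer list did not all follow. Cux1, the paralogue of Cux2, was at 47.2 ± 16.9 CPM in members and 22.9 ± 4.08 in other types, higher in 9 of 9 animals. Otof, which encodes otoferlin, a calcium sensor of vesicle fusion (chromosome 5, 30367062 to 30461932), was at 15.9 ± 11.7 against 0.611 ± 0.71 CPM, also in 9 of 9, with a read in 19.8% of members and 2.26% of other types. Nectin3, listed under its older name Pvrl3 and an adhesion molecule, stood at 36.2 ± 13.9 against 8.32 ± 3.19. Mef2c, an activity-regulated transcription factor, was at 1660 ± 266.5 against 1140 ± 203.5 CPM, and 99.6% of both members and other types had a read. Pou3f2, a POU factor of upper-layer neurons, was higher in 8 of 9 animals (29.1 ± 16.1 against 12.2 ± 2.08). Pou3f3, its relative, was higher in 5 of 9, with a mean log2 difference of -0.17 ± 0.75. Cdh13, a cadherin without a transmembrane part, was lower in 8 of 9 animals, at 105.4 ± 70.3 against 199.2 ± 58.1 CPM.

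Deep-layer genes were low. Fezf2, the selector gene of subcerebral neurons (chromosome 14, 12342094 to 12348189), was listed at 0 in Context-Only 2 and 5b, and was at 17.1 CPM in Context-Only 3, 9.36 and 40.3 in Fear-Only 2 and 3, 15.5, 39 and 43.6 in Fear-Recall 2, 3 and 4, and 1.12 in Homecage 2. In the other types of these animals Fezf2 was at 104.7 to 187.5 CPM. Bcl11b (Ctip2) was at 5.95 ± 5.34 against 46.6 ± 19.1 CPM, and Tle4, a corepressor of corticothalamic neurons, at 6.62 ± 5.82 against 40.7 ± 12.1. Syt6 had reads in 1 of the 9 animals' member sums, Fear-Recall 2 at 1.79 CPM, where the other types were at 14.9 to 34.2. Etv1, an ETS factor, was at 29.8 ± 14.5 against 194 ± 26.4 CPM, and Crym, a thyroid-hormone-binding protein, at 290 ± 69.7 against 596 ± 109. All of these were lower in 9 of 9 animals, as were Sox5, Hs3st4, Tbr1 and Nnat. Ldb2 was lower in 8 of 9, at 110 ± 22.6 against 146.8 ± 20.99 CPM.

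The lowest genes of the members belong to several families. Cryab, a small heat-shock protein, was at 2.77 ± 4.09 CPM against 71.4 ± 36.03, and Grik3, a kainate receptor subunit, at 5.74 ± 6.46 against 74.3 ± 20.7. Ctsz, a lysosomal protease, was at 4.90 ± 4.44 against 65.4 ± 13.7. Myl4, a myosin light chain, stood at 11.6 ± 12.5 against 130 ± 52.4 CPM. Plcxd3, Ifi27, Cyr61, Slc5a5 and the gene named RP23-103O7.2 were also lower in 9 of 9 animals.

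**Figure D2:**
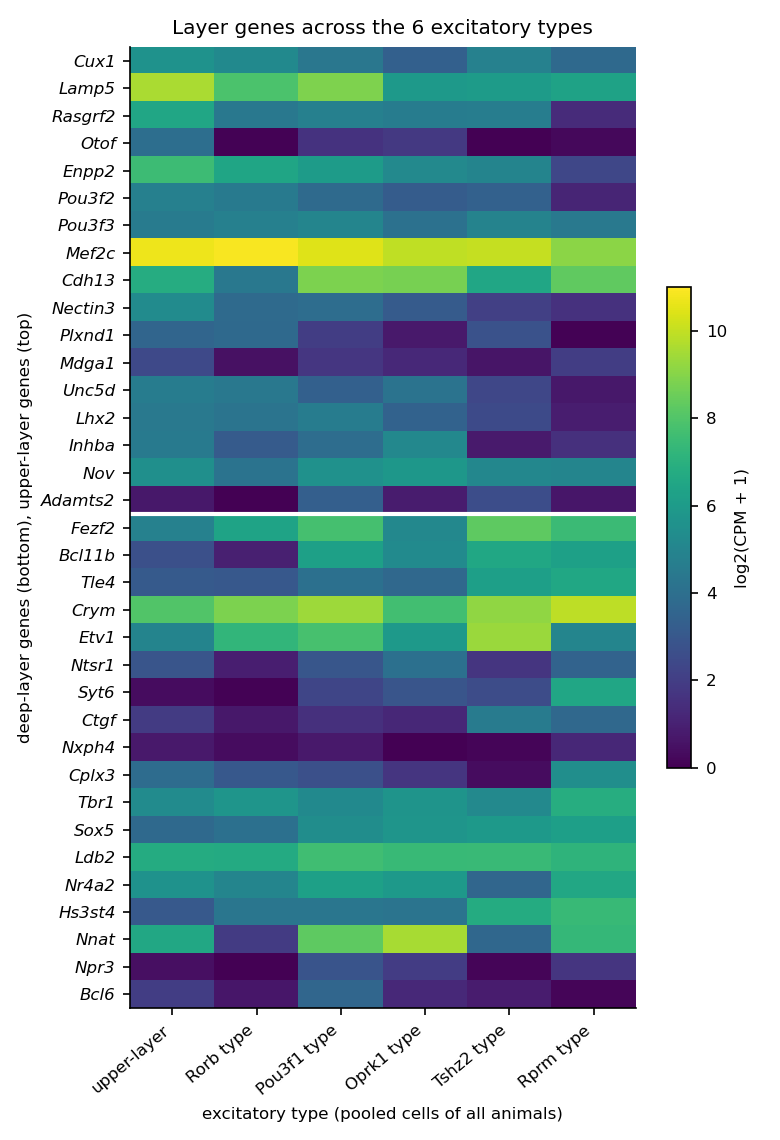
Pooled level of upper-layer genes (above the white line) and deep-layer genes (below it) in the 6 excitatory types, as log2(CPM + 1) by colour; rows are genes and are not scaled to transcript length, so colours compare types within a row. Lamp5, Otof and Rasgrf2 are brightest in the upper-layer column, while Mef2c is bright in several types.

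Set beside each of the 5 types, the members lay nearest to the Rorb type. Over 8804 genes outside the rule, Pearson's correlation of pooled log2 levels, across genes that are not independent replicates, was 0.963 with the Rorb type, 0.951 with Pou3f1, 0.946 with Oprk1, 0.891 with Tshz2 and 0.872 with Rprm. The genes that differed more than 2-fold numbered 327, 474, 521, 1091 and 1081 in that order. The pools differ in size, from 212 cells in the Pou3f1 type and 579 in the Rorb type to 585 in the Rprm type, beside 247 members. The part of pool size in these values was not tested, and they carry no test. Single genes show different neighbours. Lamp5 was at 773 CPM in members, 466 in the Pou3f1 type and 236 in the Rorb type, and at 60.9 to 80.3 in the other three. Rasgrf2 was at 90.96 CPM in members and at 1.6 to 26.7 in every other type. Mef2c was at 1684 CPM in members and 1876 in the Rorb type, so it sets the type apart from Rprm neurons (543) and not from Rorb neurons. Fezf2 was at 27.4 CPM in members and 34.1 in the Oprk1 type, against 311 in the Tshz2 type. Etv1 was as low in the Rprm type (31.4 CPM) as in members (30.5), and reached 653 in the Tshz2 type.

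Members were not all alike. Grouped by the type that scored second, the 81 members next to Pou3f1 had Lamp5 at 1073 CPM and Rasgrf2 at 131, and the 86 next to Rorb had 496 and 42.5. Otof followed the same order, with a read in 46.9% of members next to Pou3f1 and 2.3% of those next to Rorb, at 35.6 and 3.0 CPM. Crym ran the other way, at 152.8 and 442 CPM. Cdh13, which was low over the members as a whole, was at 194 CPM next to Pou3f1, 140 next to Oprk1 and 23.2 next to Rorb. Of the rule's own genes, Wfs1 was at 188.6 CPM next to Pou3f1, 178.9 next to Oprk1 and 46.9 next to Rorb. These groups were made from the same cells, so the values are a description.

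Gene families of neuronal function were compared in the same way. Over all 8824 genes, 41.7% were above 0 in mean log2 difference. Of 32 glutamate receptor and postsynaptic genes at 10 CPM or more, 27 were above 0, 4 of them higher in all 9 animals and 1 lower in all, with a median of 0.35. Of 39 vesicle fusion genes, 15 were above 0 (median -0.08), 2 higher and 5 lower in all animals. Potassium channel genes split evenly, 17 of 34 above 0 (median 0.05), 1 higher and 4 lower in all animals. Immediate-early genes, which neurons switch on within minutes of activity, were above 0 for 6 of 28 (median -0.18), and none was higher or lower in all 9 animals. Neuropeptide and granin genes were above 0 for 5 of 16 and chaperones for 4 of 15.

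Among markers of other cells in the members' sums, those of interneurons and of oligodendrocytes each stood apart in 1 animal. Over the 9 animals the summed CPM of 18 interneuron markers had a median of 15.2 and a lowest value of 1.89, and reached 619 in Fear-Recall 2, where the next animal was at 46.96. Sncg was at 0 in all members. The sum of 10 oligodendrocyte markers had a median of 88.3 and reached 1441 in Fear-Only 3. That value rests on 1 neg-gate cell, since the 16 pos-gate members of this animal were at 88.2 CPM. Of the list, Mog, Mag, Olig2, Sox10 and Cldn11 were at 0 in all members. Astrocyte markers were at 229.4 to 522 CPM, with Aqp4 at 0, and in the other excitatory types at 362 to 550. Microglial, vascular and oligodendrocyte-precursor markers were at most 42.9, 9.29 and 4.80 CPM. Cldn5, Flt1, Kdr and Vtn of vessels had no reads.

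The share of the type among excitatory neurons varied between the animals of each condition. Pooled over cells it was 11.8% in Context-Only, 9.35% in Fear-Only, 10.5% in Fear-Recall and 10.7% in Homecage. Single animals with 20 or more excitatory neurons ran from 3.10% (4 of 129, Fear-Recall 1) to 25.0% (8 of 32, Fear-Only 4, exact binomial 95% interval 11.5 to 43.4%). Fear-Recall 2 gave the most members, 52 of 366 (14.2%, 10.8 to 18.2%). Fear-Only 1 gave none of 18 neurons, which allows a share of up to 16.7% (3 counts of the total) or 18.5% (exact binomial), and Homecage 1 none of 1. Homecage 4 gave 6 of 12 (21.1 to 78.9%), all from the neg gate. In Fear-Only 4, 31 of the 32 neurons were from the neg gate. Intervals cover counting error only.

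**Figure D3:**
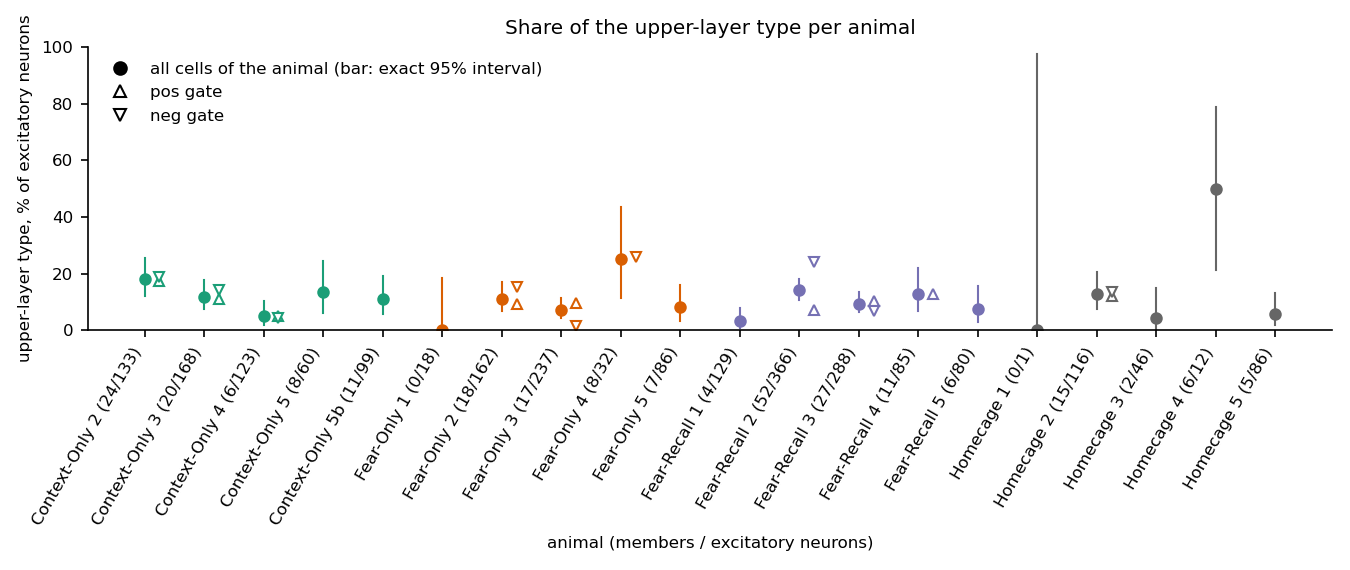
Share of the upper-layer type among excitatory neurons (y axis, percent) in each of the 20 animals; filled circles are all cells with the exact binomial 95% interval, open triangles the pos gate (upward) and neg gate (downward) where at least 20 excitatory neurons were read. Most animals lie under 15%, Homecage 4 sits at 50% on 12 neurons, and the gates are in no fixed order.

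No difference in the share of the type was found between the gates. In the 8 animals with at least 20 excitatory neurons in each gate, the share was 10.3% ± 3.67 (SD, n = 8) in pos and 12.3% ± 7.62 in neg. It was higher in pos in 3 animals and lower in 5, and the difference of -1.98 percentage points did not pass the exact two-sided sign-flip test (p = 0.539, smallest possible 0.00781). The widest gap was in Fear-Recall 2, with 7.08% in pos and 24.03% in neg, and without it the difference was 0.154 points. In the pos gate, Fear-Recall 2, 3 and 4 had 7.08, 10.3 and 12.9%, and Context-Only 2, 3 and 4 had 17.5, 11.1 and 5.19%. The ranges overlapped and the means, 10.1% ± 2.94 and 11.3% ± 6.15 (SD, n = 3 each), did not differ by an exact two-sided permutation test (p = 0.9, smallest possible 0.1). The test cannot reach 0.05 at this size.

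The reporter transcript checks the gate within the type, and was not used by the rule. Context-Only 2 and Fear-Recall 2 had at least 10 members in each gate. In Context-Only 2, 30.0% of neg-gate and 42.9% of pos-gate members had a reporter read, and in Fear-Recall 2, 2.70% and 80%. With 2 animals the exact two-sided sign-flip test cannot go below 0.5. Taking animals with at least 5 members in each gate, a limit chosen after seeing the data, 6 animals gave 73.8% ± 23.5 (SD, n = 6) in pos and 10.5% ± 12.3 in neg, higher in pos in 6 of 6 (exact sign-flip p = 0.0313, the smallest that 6 animals can give). Thinned to 100000 reads per cell, the shares were 56.1% and 3.78%. Both gates of Context-Only 2 stand closer together than those of the other 5 animals.

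Among pos-gate cells, no difference in reporter share was found between members and other excitatory neurons. In the 7 animals with at least 10 members in this gate, 81.97% ± 22.6 (SD, n = 7) of members and 79.9% ± 17.8 of the other types had a reporter read. The difference of 2.02 percentage points did not pass the exact two-sided sign-flip test (p = 0.5, smallest possible 0.0156). All members had a read in Context-Only 3, Fear-Only 3 and Fear-Recall 3. Neg-gate cells of the other types had a reporter read in 0 to 16.7% of cells per animal. Among neg-gate members the share reached 37.5% in Fear-Only 4 (3 of 8 cells, where the other types were at 0), 30.0% in Context-Only 2 and 20% in Fear-Recall 3. Whether reads in the neg gate are background was not tested.

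**Figure D4:**
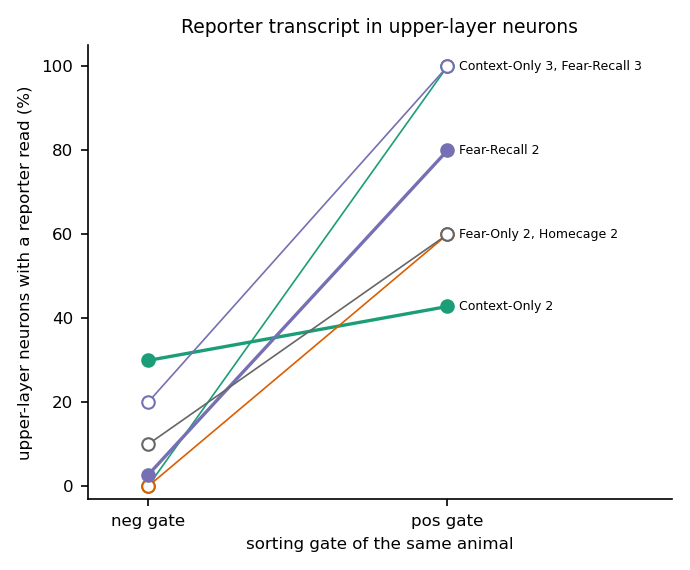
Percent of upper-layer neurons with at least 1 reporter read (y axis) in the neg and pos gate of the same animal; each line is 1 of the 6 animals with at least 5 members in both gates, thick and filled for the 2 with at least 10. Every line goes up from neg to pos, and that of Context-Only 2, from 30.0 to 42.9%, goes up least.

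Whether the type's transcripts differ between fear memory conditions was asked on sums of its pos-gate cells, which held 10 to 22 cells and 6304930 to 16413200 reads per animal. Fear-Recall gave 3 animals (mice 2, 3 and 4), Fear-Only 2 (2 and 3) and Context-Only 2 (2 and 3). Their cells carry 7 plate numbers in the labels and none of these held 2 conditions, so condition and plate cannot be told apart. In edgeR's quasi-likelihood fit, with p adjusted by the method of Benjamini and Hochberg, 0 of 14261 genes (0%) passed an adjusted p of 0.05 in any of the 3 contrasts. For Fear-Recall against Context-Only, 856 genes (6.0%) were under an unadjusted p of 0.05, and DESeq2 called 64 of 12529 (0.511%), 49 higher and 15 lower. For Fear-Recall against Fear-Only, 401 genes (2.81%) were under 0.05 and DESeq2 called 15 of 13082 (0.115%). For Fear-Only against Context-Only the values were 515 (3.61%) and 50 of 14188 (0.352%). The smallest edgeR adjusted p was 0.747, 1 and 0.946 in these contrasts. Single animals move the unadjusted counts. For Fear-Recall against Context-Only, 3033 genes were under 0.05 without Context-Only 3 and 345 without Context-Only 2. For Fear-Only against Context-Only there were 2473 without Context-Only 3, 307 without Context-Only 2 and 233 without Fear-Only 2. For Fear-Recall against Fear-Only, 161 were left without Fear-Only 2, 236 without Fear-Recall 4 and 263 without Fear-Recall 2, and there were 643, 705 and 712 without Fear-Only 3, Context-Only 3 and Context-Only 2. The genes below are therefore named as values, the smallest p in each direction and the smallest in each list, and none passed the main test. The contrasts share samples.

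Of 32 immediate-early genes tested between Fear-Recall and Fear-Only, 30 were above 0, as were 54.3% of all genes. The list's median log2 difference was 0.65, where all genes had 0.09, and 5 were under an unadjusted edgeR p of 0.05, all higher. Arc, whose protein forms capsid-like particles at synapses (chromosome 15, 74669083 to 74672570), was at 265.3, 734 and 545 CPM (scaled by TMM) in Fear-Recall mice 2, 3 and 4, 114 and 84.5 in Fear-Only mice 2 and 3, and 124.4 and 238.6 in Context-Only mice 2 and 3. Every Fear-Recall animal was above every animal of the other conditions, which held for 4.0% of all genes. The log2 difference was 2.38 (SE 0.55) from Fear-Only and 1.504 (SE 0.53) from Context-Only, with edgeR adjusted p of 1 and 0.747. Dusp1, a phosphatase that turns off MAP kinases (chromosome 17, 26505590 to 26562128), was at 219.03, 366 and 539 CPM in Fear-Recall, 63.4 and 65.5 in Fear-Only and 105.4 and 248 in Context-Only. It was 2.54 (SE 0.56) above Fear-Only on the log2 scale, edgeR adjusted p = 1, while Fear-Recall 2 lay below Context-Only 3. DESeq2 called Arc and Dusp1 in the contrast with Fear-Only.

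Other members of the list were less uniform. Dusp6, a phosphatase of ERK, was at 126, 273.7 and 340 CPM in Fear-Recall, 101 and 107 in Fear-Only and 77.5 and 126.9 in Context-Only, so Fear-Recall 2 lay just under the higher Context-Only animal. Jun, a subunit of AP-1, was at 76.7 and 50.7 CPM in Fear-Only and at 167.5 and 122 in Context-Only, and at 150, 95.4 and 114.5 in Fear-Recall, so Fear-Recall was above both Fear-Only animals and overlapped Context-Only. Npas4, a neuronal activity factor, was at 11.7 and 2.82 CPM in Fear-Only, 47.3 and 13.1 in Context-Only and 21.5, 24.1 and 41.2 in Fear-Recall. Fosl2, a Fos relative, was highest in Context-Only (90.1 and 58.3 CPM). Against Context-Only, 21 of 32 were above 0 in Fear-Recall with a median of 0.11, where 53.7% of all genes were above 0. In Fear-Only 26 of 32 were below 0 with a median of -0.53, where 52.4% of all genes were below 0. Summed over the list on the TMM scale, Fear-Recall stood at 3705, 5726 and 5661 CPM, Fear-Only at 3370 and 2994 and Context-Only at 3672 and 4627. Both Fear-Only animals are lower than every animal of the other conditions, by little in the case of Context-Only 2 and Fear-Recall 2. Without TMM scaling the order changes, since Context-Only 2 is then at 2813 CPM and the Fear-Only animals at 3348 and 3124.

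**Figure D5:**
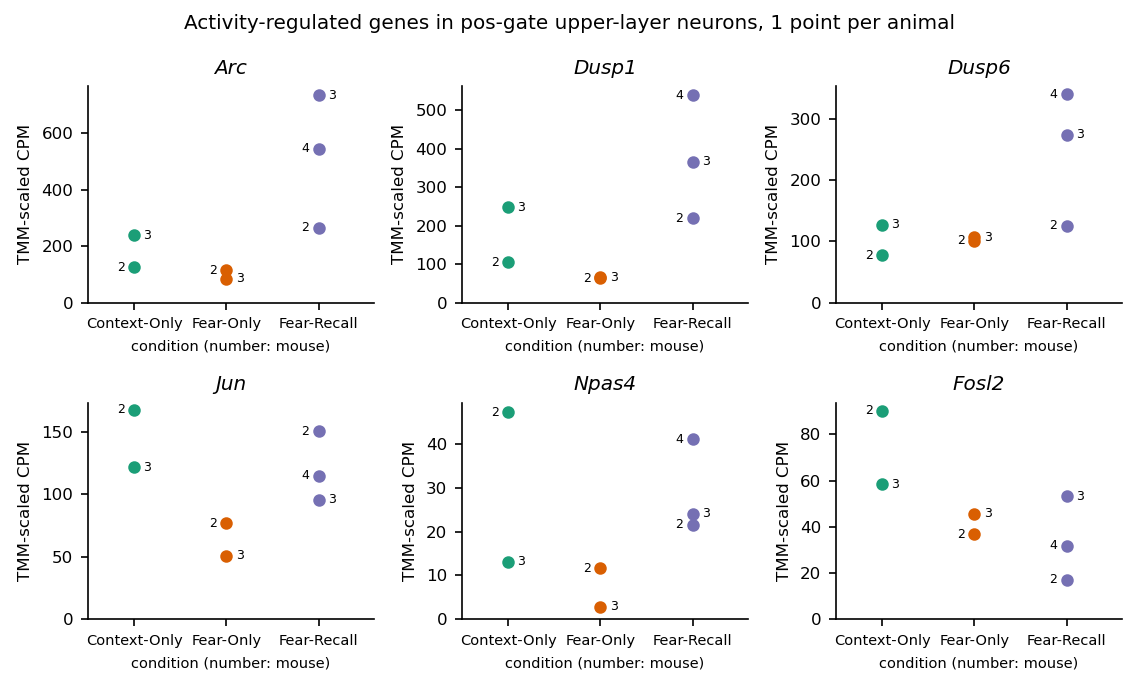
TMM-scaled CPM (y axis) of 6 immediate-early genes in the summed pos-gate upper-layer neurons of each animal; each point is 1 animal, numbered by mouse, in Context-Only (2), Fear-Only (2) and Fear-Recall (3). Arc in Fear-Recall lies between 265.3 and 734, above the 84.5 to 238.6 of the other animals, and no gene passed the main test.

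Outside that list, 2 signalling genes had the smallest p for higher levels in Fear-Recall than in Fear-Only beside Arc and Dusp1. Mib2, a ubiquitin ligase of Notch ligands, was at 56.2, 57.8 and 79.2 CPM in Fear-Recall, 10.2 and 10.8 in Fear-Only and 26.1 and 13.8 in Context-Only, without overlap. Map2k3, a kinase upstream of p38, was at 12.7, 36.3 and 41.0 CPM against 2.24 and 0.820 in Fear-Only. DESeq2 called both. On the lower side Crym was at 114, 285.4 and 177.9 CPM in Fear-Recall, 653 and 396 in Fear-Only and 305 and 281 in Context-Only, a log2 difference of -1.45 (SE 0.46) from Fear-Only. Yeats4 and Vps72, subunits of chromatin complexes, and Ehbp1l1 were also lower without overlap: Yeats4 was at 23.9 to 31.6 CPM against 65.4 and 96.2, Vps72 at 24.9 to 33.9 against 68.0 and 97.3, and Ehbp1l1 at 10.5 to 40.4 against 76.9 and 101. Fear-Recall lay wholly above Fear-Only in 11.3% of all genes and wholly below it in 8.95%. None of the named genes passed edgeR's test.

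Channel and synapse genes in that contrast are set beside 54.3% of all genes above 0 and a median of 0.09. Of 40 potassium channel genes 33 were above 0 (median 0.49), of 40 vesicle fusion genes 28 (median 0.24) and of 36 glutamate receptor and postsynaptic genes 26 (median 0.19), none under an edgeR adjusted p of 0.05. Fear-Recall 2 carried 1441 CPM (not TMM-scaled) of interneuron markers in its pos-gate sum against 0 to 28 in the other 6 animals, and their part in these lists was not tested. Kcnip2, a subunit of A-type potassium channels, was at 160, 107.6 and 93.9 CPM in Fear-Recall, 64.4 and 55.2 in Fear-Only and 45.5 and 75.2 in Context-Only. Gria3, an AMPA receptor subunit, stood at 283, 201.5 and 268 CPM in Fear-Recall, 103 and 137 in Fear-Only and 272.4 and 175 in Context-Only. Rims3, an active-zone protein, was at 137, 82.8 and 74.0 CPM against 19.8 and 52.4 in Fear-Only. In these 3 genes the Fear-Recall animals lay above both Fear-Only animals, as in 11.3% of all genes. Neuropeptide and granin genes were above 0 for 9 of 15 (median 0.24) and chaperones for 9 of 15 (median 0.15).

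Against Context-Only, the extremes lean on 1 animal. Urah, Rapgef1, Fam63b and Ipo7 had the smallest p for lower levels in Fear-Recall. Urah, an enzyme of urate breakdown, was at 248 CPM in Context-Only 2 and 36.5 in Context-Only 3, against 20.04, 22.5 and 18.9 in Fear-Recall. Rapgef1, an exchange factor for Rap1, was at 142.2 and 28.1 CPM against 4.88, 15.9 and 7.02. Fam63b, a deubiquitinase, was at 137.9 and 26.8 against 9.01 to 13.4, and Ipo7, a nuclear import receptor, at 115.4 and 35.3 against 10.02 to 15.96. Context-Only 2 is the high animal each time, and its TMM factor was 0.766 where the other 6 were 0.993 to 1.085. Its members in this gate had a median of 4950 genes, against 6872 to 8446 in the other 6 animals. Of its 14 pos-gate members, 7 had at least 5000 genes. The part of these in the values was not tested. On the higher side, Fgf14, a partner of sodium channels, was at 37.8, 53.5 and 51.8 CPM in Fear-Recall, 29.4 and 24.4 in Fear-Only and 9.26 and 14.1 in Context-Only, a log2 difference of 2.03 (SE 0.63). Rxrg, a retinoid receptor, was listed at 0 in both Context-Only animals, at 51.9 and 39.9 CPM in Fear-Only and at 16.3, 14.7 and 0.674 in Fear-Recall. Tapbpl, a factor of peptide loading, was at 0 and 0.630 in Context-Only, 23.97 and 23.7 in Fear-Only and 32.0, 7.65 and 25.7 in Fear-Recall. Gca, a calcium-binding protein, was at 85.2 CPM in Fear-Recall 2 and at 1.89 to 17.6 in the other animals.

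Members of the lists in that contrast had mixed directions. Kcnq3, a potassium channel subunit, was at 66.1, 52.6 and 55.0 CPM in Fear-Recall and 139 and 109 in Context-Only, a difference that was 0.93 on the log2 scale with members leading by at least 0.5 in sums of at least 5, which leaves Context-Only 2 alone against Fear-Recall 2 and 3. Dlg3, a postsynaptic scaffold, was at 4.29, 13.01 and 21.8 CPM against 83.7 and 29.9. Rims2, an active-zone protein, was at 249 CPM in Context-Only 2 and at 27.5 to 66.7 in the other 6 animals, and its difference turned sign without Context-Only 2 (0.44 on the log2 scale). Grik1 and Kcnip1, which interneurons express strongly, were at 24.1 and 34.7 CPM in Fear-Recall 2 and at 0 in Fear-Recall 3 and 4. Fear-Recall 2 is the animal with the high interneuron marker sum given above, and the part of that sum in these values was not tested.

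Between Fear-Only and Context-Only the smallest p values were those of Rxrg and Tapbpl, given above, and of genes that were low in Fear-Only. Adcyap1r1, the receptor of the neuropeptide PACAP, was at 11.7 and 12.8 CPM in Fear-Only, 137.5 and 52.04 in Context-Only and 29.4 to 37.3 in Fear-Recall, a log2 difference of -2.96 (SE 0.67). Cacna1c, an L-type calcium channel, was at 4.47 and 3.92 CPM in Fear-Only against 63.3 and 14.8, Sin3a, a corepressor scaffold, at 2.56 and 1.64 against 64.5 and 17.4, and Bmp1, a secreted protease, at 5.11 and 4.55 against 95.1 and 29.8. Ass1, an enzyme of arginine synthesis, ran the other way, at 56.1 and 75.0 CPM against 2.50 and 12.4, and Clcc1, a chloride channel of the endoplasmic reticulum, was at 64.1 and 20.2 against 5.39 and 6.77. Groups did not overlap in these 6 genes, nor in 26.5% of all genes. In the 4 that were low in Fear-Only the higher value is again that of Context-Only 2, and without it the log2 difference of Adcyap1r1 was -2.08 and that of Cacna1c -1.81 in place of -3.22. Cplx2, which clamps vesicle fusion, was at 107 and 41.7 CPM against 337 and 114.6 in Context-Only, where mouse 2 is again the higher, and its log2 difference of -1.60 was -0.62 without that animal.

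To ask whether the type responded differently from its neighbours, the Fear-Recall minus Context-Only difference was compared between members and the other 5 types of the same pos-gate animals. edgeR called 0 of 18232 genes (0%), with 707 (3.88%) under an unadjusted p of 0.05, and DESeq2 called 71 of 15757 (0.451%). Without Context-Only 3, 2575 genes were under 0.05, without Fear-Recall 2 434 and without Fear-Recall 4 450. The smallest p values included Prdx3, a mitochondrial peroxidase, at 92.7, 114 and 89.4 CPM in Fear-Recall members and 33.9 and 48.1 in Context-Only members. In the other types Prdx3 was at 151.7, 146.8 and 133.9 against 190 and 184.5. Tle4 was at 9.13, 9.30 and 14.97 CPM in Fear-Recall members and 0.076 and 0.871 in Context-Only members, with 26.0 to 41.7 and 28.6 and 50.6 in the other types. Ppp1r1b, the phosphatase regulator DARPP-32, and Oard1 were the other 2 with members relatively higher in Fear-Recall. Rapgef1, Ncln, Ipo7 and Zfp292 were the 4 in the other direction, and for Rapgef1 and Ipo7 the high value is again that of Context-Only 2 members. Zfp292 was at 0.26 with the stricter lead, on the same 3 animals as Kcnq3 above. Of the immediate-early list, 24 of 35 were above 0 with a median of 0.30, beside 56.0% and 0.15 for all genes.

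The gates were compared within Context-Only 2 and Fear-Recall 2, the animals with at least 10 members in each. In both, the gates lay on different plates, as in 7 of the 9 animals with both gates, so gate and plate cannot be told apart. edgeR called 0 of 12711 genes (0%), with 430 (3.38%) under an unadjusted p of 0.05, and DESeq2 called 43 of 11232 (0.383%). Uchl3, a ubiquitin hydrolase, was at 111 CPM in neg and 388 in pos cells of Context-Only 2, and at 56.7 and 167.1 in Fear-Recall 2. Cecr6 was at 35.9 and 212, and at 11.1 and 84.4, but its log2 difference of 2.75 became 0.69 in the 6 animals with at least 5 members per gate and turned to -1.28 with members leading by at least 0.5 in sums of at least 5. Lrrn3, a leucine-rich membrane protein, was at 3.86 and 74.8, and at 17.3 and 116. Rbm8a, of the exon junction complex, was likewise higher in pos in both. Of all genes, 49.9% were higher in pos in both animals or lower in both. Lower in pos in both animals were Btg2, an antiproliferative immediate-early gene (105.2 and 25.7 CPM, then 114 and 19.8), Gadd45b, a stress-induced gene (266.97 and 61.6, then 95.3 and 36.95), and Exoc4 of the exocyst (44.7 and 0.879, then 26.0 and 0.734). Rn18s-rs5, a ribosomal RNA repeat whose reads may be shared among copies, was also lower.

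Fos, whose promoter drives the TRAP2 allele, was at 167.3 CPM in neg and 96.1 in pos members of Context-Only 2, and at 349 and 192 in Fear-Recall 2. Of 32 immediate-early genes 25 were below 0 in pos, with a median of -0.43, where 49.7% of all genes were below 0. That direction belongs to these 2 animals. With the 6 animals that have at least 5 members per gate, 22 of 34 were above 0 (all genes 50.5%), with a median of 0.47, and the difference of Fos was 1.06. Set against the other types of the 2 animals, edgeR called 0 of 16220 genes (0%), with 452 (2.79%) under 0.05 unadjusted, and DESeq2 called 70 of 12446 (0.562%). Cecr6, Uchl3, Exoc4 and Gadd45b were again among the genes of smallest p, and Cecr6 turned to -1.13 with the stricter lead. Exoc4 was at 23.8 to 42.8 CPM in all 4 sums of the other types and at 0.755 to 46.5 in those of the members. Kcnip1, Gsta4, Plcxd3 and Zfp945 were the others, and Kcnip1 rests on Fear-Recall 2 alone.

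With all gates together, 1 Homecage animal (mouse 2, 15 members) could be set against 3 Fear-Recall, 2 Fear-Only and 3 Context-Only animals. Cells without a gate in their titles are included. The spread of Homecage is not measured, and the test assumes that it varies like the other conditions. edgeR called 0 of 16998 genes (0%) in each contrast. Unadjusted p values under 0.05 numbered 669 (3.94%) for Fear-Recall, 609 (3.58%) for Fear-Only and 733 (4.31%) for Context-Only, and DESeq2 called 233 of 15024 (1.55%), 250 of 14380 (1.74%) and 281 of 15684 (1.79%). On leaving out each other animal the unadjusted counts ran from 381 (without Fear-Recall 3) to 974 (without Context-Only 5b) for Fear-Recall, from 436 (without Fear-Recall 3) to 968 (without Context-Only 5b) for Fear-Only and from 536 (without Fear-Recall 2) to 1041 (without Context-Only 3) for Context-Only. The smallest edgeR adjusted p, 0.140 to 0.248, was that of Ctxn3, a cortexin, listed at 0 in Homecage 2 and at 22.7 to 68.1 CPM in the other 8 animals. Lynx1, a brake on nicotinic receptors, was at 1.35 CPM in Homecage 2 and 29.3 to 62.8 in the others. Grm2, a presynaptic glutamate receptor, was at 5.72 against 24.3 to 121, and Zfp667 at 122.5 against 12.6 to 47.6. Each of these 4 genes has Homecage 2 outside the range of all other animals, as have 18.2% of all genes, and the same animal enters all 3 contrasts.

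Several immediate-early genes were low in that Homecage animal. The mix of gates differs between these animals, and its part in these values was not tested. In Homecage 2, 5 of 15 members came from the pos gate, against 15 of 52 in Fear-Recall 2. It was 16 of 17 in Fear-Only 3 and all 11 in Fear-Recall 4. The 11 members of Context-Only 5b carry no gate in their titles. Egr1, an activity-regulated zinc finger factor, was at 188 CPM and at 443 to 2216 in the other 8, Fos at 70.4 against 89.4 to 429, and Dusp6 at 26.6 against 40.3 to 342. Btg2 and Npas4 were higher in Homecage 2 than in Fear-Only, at log2 differences of -2.21 and -2.07 (edgeR adjusted p of 1, with the spread taken from the other conditions). With at least 5 members per animal, which adds Homecage 4 and 5, they were -2.14 and -0.89 (edgeR adjusted p = 0.732 and 0.911), and Dusp6 turned to -0.24 for Context-Only against Homecage. Of 34 tested, 31 were above 0 in Fear-Recall (median 1.52), 21 in Fear-Only (0.44) and 32 in Context-Only (1.58). All genes had medians of 0.29, 0.08 and 0.15, with 58.8, 52.5 and 55.2% above 0. With at least 5 members per animal, which gives 16 animals, the counts were 26, 15 and 23 of 32 and the medians 0.81, -0.05 and 0.46, where 54.0, 55.4 and 54.8% of all genes were above 0.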

How the data were processed

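Single cells from mPFC of 20 animals were read by Smart-seq2. The authors deposited a table of raw read counts for 23355 genes and 3530 cells, per the labels and the file headers. Bowtie 0.12.2 and the builds mm8 and mm10 are named, with no role, per the submitters' processing notes, and for the counting step the tool and settings are not given in the sources used here. Without molecular identifiers, reads are not independent molecules, and repeats and overlapping genes may share reads. Cells held at least 100002 reads. The reporter row was kept out of the sums, which leaves 23354 genes.

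The members and gene lists were chosen with earlier results of these data known. Counts of cells were summed per animal, or animal and gate, where at least 10 members were present, and tested with edgeR 4.0.16 (TMM factors, filterByExpr, quasi-likelihood F test, Benjamini-Hochberg adjusted p under 0.05). DESeq2 1.42.0 was the alternative tool. Shares were compared by exact sign-flip or permutation tests (scipy 1.17.1). Doublets were not called. The pos-gate contrasts fitted all 3 conditions together, so they share a spread. Each SE of a log2 difference was computed back from edgeR's test, as its absolute value divided by the square root of F. The interaction fits blocked on animal or on animal by type. Named genes were the 4 of smallest p per direction at a mean log2 CPM of at least 4, without genes of the rule and predicted genes, and 2 to 4 per described list. For the description of the type they were the 20 highest and 10 lowest by mean log2 difference at 50 CPM or more, and both layer lists. The 10 CPM floor for counting genes, and the choice of the lists from which members are named, came after seeing output. Gene positions are from GENCODE vM21 (GRCm38).

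Mouse numbers are shared between conditions. Deviations of the pos-gate sums from their condition means correlated at 0.116 to 0.315 over 6550 genes in all 6 same-numbered pairs. Pairs of different numbers ran from -0.315 to 0.254, with Context-Only 3 and Fear-Recall 4 at 0.254. Fear-Only 3 and Fear-Recall 4 were at 0.173. With 2 animals each in Context-Only and Fear-Only, the deviations of those 2 mirror each other. Fear-Recall 4 has no partner of the same number among these sums. The values depend on one another and cannot decide whether the number is a pairing. The number was used as a block in an alternative only. Alternatives were another tool, scaling and filter, thinned cells, a stricter lead, at least 5 members per sum, cells of at least 5000 genes, the block and leaving out each animal. The main fits were also run on simulated data, except the comparison of the gates with other types, and the outcomes are not reported here. Some genes of the lists are counted but not reported here by name.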

Additional observations from a re-analysis of the deposited data

Results flagged for a closer look

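In groups of 5, 7 or 9 animals, 9 values of 82 groups examined lay far from the rest of their group by Dixon's test at the 95% level. Chance gives this in about 1 in 20 groups of normally distributed values. CPM values with many zeros need not follow that rate. Homecage 4 had 50% of its 12 excitatory neurons in the type, where the other Homecage animals had 0 to 12.9%. All cells of Homecage 4 came from the neg gate, which is not so for the others, and the 0 is Homecage 1 with 1 neuron. In the members' sums over 9 animals, Rasgrf2 was at 213.6 CPM in Homecage 2 and at 43.1 to 116.6 in the others.

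Some genes of low level stood out in single animals. Slc5a5, the sodium iodide symporter, was at 18.3 CPM in Fear-Only 3 and at 0 to 3.67 in the others. Ctgf, a matrix protein of layer 6b neurons, was at 5.90 CPM in Fear-Only 2 and at most 1.58 elsewhere. Syt6 was at 1.79 CPM in Fear-Recall 2 and at 0 in the other 8 animals. RP23-103O7.2 was at 1.15 CPM in Context-Only 2 against at most 0.28. Bcl6, a transcription repressor, was at 3.15 CPM in Context-Only 5b and at 0.26 to 1.46 in the others.

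Marker sums of other cells stood out in 2 animals. The interneuron markers were at 619 CPM in Fear-Recall 2 against 1.89 to 46.96, and the oligodendrocyte markers at 1441 CPM in Fear-Only 3 against 42.9 to 152.4. The latter rests on 1 neg-gate cell, as the 16 pos-gate members of Fear-Only 3 were at 88.2 CPM. Mog, Mag, Olig2, Sox10 and Cldn11 were at 0 in all members.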

How the results depend on the processing

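Few animals limit these contrasts: the Homecage contrasts rest on 1 animal and the gate contrast on 2. DESeq2 called 64 genes for Fear-Recall against Context-Only, 15 for Fear-Recall against Fear-Only, 50 for Fear-Only against Context-Only, 43 between gates, 233, 250 and 281 for Fear-Recall, Fear-Only and Context-Only against Homecage, and 71 and 70 in the comparisons with other types by condition and by gate, where edgeR called 0; the cause was not tested. Without a filter, edgeR called 1 gene in Fear-Recall against Fear-Only, 1 in Fear-Only against Context-Only and 1 between gates. Leaving out each animal gave 0 to 2 calls for Fear-Recall against Context-Only (2 without Context-Only 3), 0 to 1 for Fear-Recall against Fear-Only (1 without Context-Only 2 or 3) and 0 to 1 for Fear-Only against Context-Only (1 without Context-Only 2). Against Homecage it gave 0 to 1 for Fear-Recall and 0 to 2 for Context-Only, the highest without Context-Only 2. The replicate block by mouse number left 0 calls in all 6 contrasts it was fitted to and changed no call, with 459, 230 and 381 genes under an unadjusted p of 0.05 in the pos gate.

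Members leading by at least 0.5, in sums of at least 5 cells, gave 4 calls for Fear-Recall against Context-Only and 30 for its comparison with other types, both on Fear-Recall 2 and 3 against Context-Only 2 alone, with no other condition in the fit. Both this and the 5-cell limit were chosen after seeing the data. A lead of 0.5 with 10 cells could not be fitted to the pos-gate, gate or Homecage contrasts, nor, with 5 cells, to those with Fear-Only in the pos gate, and the gate contrasts could not be fitted without either animal.

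Several gene differences turned sign (log2). In Fear-Recall against Context-Only, Rims2 ran from -2.29 to 0.44 on leaving out each animal, 0.44 without Context-Only 2, and was at 0.42 without cells of under 5000 genes, and at 0.19 without those cells in Fear-Only against Context-Only. That limit leaves Context-Only 2 (7 cells) and Fear-Only 2 (9 cells) under 10 members, so these 2 values restate the loss of Context-Only 2 and rest on single animals. With the stricter lead and 5 cells, Kcnq3 was at 0.93 in Fear-Recall against Context-Only, Cecr6 at -1.28, Fos at 0.12 and Cplx2 at 0.13 between gates, Rph3a at -0.16 and Kcnn2 at -0.054 in Fear-Only against Homecage, Dusp6 at -0.021 in Context-Only against Homecage, Zfp292 at 0.26 in the comparison with other types by condition, and Cecr6 at -1.13 and Fos at 0.010 in that by gate. With 5 cells, Fos was at 1.06, Gadd45g at 0.56 and Kcnn1 at 2.37 between gates, and Fos at 0.62 against other types. Also leaving out cells of under 5000 genes, they were at 1.13, 0.47 and 0.46. Against Homecage with 5 cells, Ier3 was at -2.23, -1.39 and -2.24 for Fear-Recall, Fear-Only and Context-Only, and Dusp6 at -0.24 for Context-Only.

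The share of the type, pos minus neg, ran from -3.45 to 0.154 points on leaving out each animal, the latter without Fear-Recall 2. For Fear-Recall minus Context-Only it ran from -4.21 to 1.95, turning sign to 0.342 without Fear-Recall 2 and to 1.95 without Context-Only 2. The reporter difference between gates was 63.4 points with 5 members per gate and 52.3 thinned, both past the test's threshold, where the 2 animals with 10 members could not reach it.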

Other observations

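The share of the type also varied by labelled mouse number. Of excitatory neurons from mice numbered 1, 2.70% were members (4 of 148), from mice 2 14.03% (109 of 777), from mice 3 8.93% (66 of 739), from mice 4 12.3% (31 of 252) and from mice 5 9.0% (37 of 411). Exact binomial 95% intervals, which cover counting error only, were 0.741 to 6.78% for mice 1 and 11.7 to 16.7% for mice 2. Single animals weigh heavily: Fear-Recall 1 gave 129 of the 148 neurons and all 4 members of mice 1. Fear-Recall 2 gave 366 of the 777 neurons and 52 of the 109 members of mice 2. Cells of mice 1 and 5 carry no gate in their titles, and the mix of conditions differs between numbers. No test was made of these pooled shares.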
